A study of Mus musculus with 36 samples.

Results

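Glutathione transferases join the tripeptide glutathione to electrophilic compounds, which makes these compounds less reactive and easier to export. The cytosolic enzymes fall into classes named by Greek letters, and muscle, like other tissues, uses them to clear lipid peroxidation products and foreign chemicals. Many genes of the family are known targets of the transcription factor NRF2, which binds the antioxidant response element in their promoters. The genes described are 10 of this family: Gstt1, Gstt2 and Gstt3 of the theta class, Gstm1, Gstm2 and Gstm5 of the mu class, Gstp1 of the pi class, Gsta4 of the alpha class, Gstk1 of the kappa class and Gsto1 of the omega class. They were chosen on the counts themselves: Gstt2 was picked because it was higher in the ∆Ig3-MuSK TA than in the WT TA, and the other 9 were added as members of its family. All 10 were found among the 51912 gene IDs counted in each muscle, and all 10 passed the filter on low counts in every comparison.

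The libraries came from whole muscles of male C57BL/6 mice aged 3 months. There were 9 libraries of each genotype, WT or ∆Ig3-MuSK, for each muscle, TA or soleus, which gave 4 groups and 36 libraries in all. A group is named by genotype and muscle, as in WT TA. The TA (tibialis anterior) is a fast muscle of the mouse hindlimb and the soleus a slow one. ∆Ig3-MuSK mice are homozygous for a CRISPR deletion of the exons that encode the third immunoglobulin-like domain of MuSK, the receptor kinase of the neuromuscular junction that also binds BMPs, and so they lack this domain in every cell that expresses Musk. A CPM value gives the count of a gene relative to the total of its library, with all 36 libraries scaled together by TMM factors.

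Library totals ran from 43492062 to 78660422 counts. The muscle labels matched the fiber markers: the summed level of 9 slow fiber genes was at most 244 CPM in a TA library and at least 21863 CPM in a soleus library. Counts of the whole Musk gene do not resolve the deleted exons, and the gene was at 15.1 CPM in WT soleus against 11.2 CPM in ∆Ig3-MuSK soleus (log2 fold change -0.44, adjusted p = 0.0978). In the TA, Musk was at 4.28 CPM in WT and 3.09 CPM in ∆Ig3-MuSK (log2 fold change -0.46, SE 0.12). The gene was not called for genotype in either muscle. A pair of libraries stood apart. Replicate 5 of WT TA had the lowest TMM factor (0.805), and replicate 8 of ∆Ig3-MuSK soleus had a summed level of 10.9 CPM over 5 tendon cell markers where the next lowest library of its group had 140. Values that moved without them are given below. Without replicate 8 of ∆Ig3-MuSK soleus none of the 10 genes changed its call. Since whole muscles were used, fewer cells of a type and less RNA per cell cannot be told apart.

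The theta genes sit in a row on chromosome 10. Gstt2 (ENSMUSG00000033318) spans 75831114 to 75837424 on the minus strand of GRCm38, with Gstt4, Gstt1 and Gstt3 following toward lower coordinates, all on the same strand. Gstm1, Gstm2 and Gstm5 lie on chromosome 3, Gstp1 and Gsto1 on chromosome 19, Gsta4 on chromosome 9 and Gstk1 on chromosome 6. Close copies can take reads from some of them. Of the 50-base stretches in the annotated transcripts, 0.636% of those of Gstt2 also occur in another gene, against 33.7% for Gstp1 (mostly in its neighbor Gstp2), 18.9% for Gstm1 and 12.5% for Gstt3, whose exons overlap those of Gm20441 on the same strand. Exons of Gstm5 overlap an antisense gene, 4933431E20Rik, by 178 bases, and reads of the pair could not be separated in libraries without strand. Gstt1, Gsta4, Gstk1 and Gsto1 shared no such stretch, so their counts and those of Gstt2 are the least affected by copies.

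RefSeq promoter sequences, taken from 250 bases before to 50 bases after the annotated start, were at hand for 8 of the 10 genes. Gstt2 and Gsta4 were not among them. The antioxidant response element core was searched as TGACNNNGC on both strands. It occurred in 1 of the 8, that of Gstm5, and in 14.0% of 27025 promoters of the same length. The Gstm5 promoter and that of Gsto1, the gene with the largest muscle difference among the 10, are printed 5′ to 3′, the first at chr3:107895604-107895903 and the second at chr19:47854723-47855022, both on the plus strand of GRCm38.p6. Capitals mark the match in Gstm5, which starts at position -42 from the annotated start. The Gsto1 window held no match and is in lower case.
Gstm5: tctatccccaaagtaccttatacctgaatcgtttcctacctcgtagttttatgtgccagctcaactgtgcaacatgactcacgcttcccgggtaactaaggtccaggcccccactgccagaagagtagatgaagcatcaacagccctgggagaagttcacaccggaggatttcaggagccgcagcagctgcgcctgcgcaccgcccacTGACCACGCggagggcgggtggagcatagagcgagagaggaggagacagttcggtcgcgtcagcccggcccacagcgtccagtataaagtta
Gsto1: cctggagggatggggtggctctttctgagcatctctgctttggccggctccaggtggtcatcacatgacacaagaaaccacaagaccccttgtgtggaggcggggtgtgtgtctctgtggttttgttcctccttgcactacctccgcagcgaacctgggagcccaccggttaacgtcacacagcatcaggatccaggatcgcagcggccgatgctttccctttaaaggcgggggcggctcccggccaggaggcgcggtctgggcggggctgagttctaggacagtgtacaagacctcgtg
The D-box (TTANGTAA), which clock output factors such as DBP bind, was in 0 of the 8 promoters and in 2.72% of all. The E-box (CACGTG), bound by the core clock factors, was in 0 of the 8 and in 8.09% of all. These matches and their absence describe the printed windows only.

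Levels were compared between genes per kilobase of merged exons, and the order at the top depended on this length. In WT TA, Gstm1 was the highest of the 10 at 42.6 ± 4.59 CPM per kb (SD, n = 9), followed by Gstm5 at 36.8 ± 8.24 and Gstp1 at 35.7 ± 3.04. The ranges of neighbors in this order overlapped for these 3 genes. Per kilobase of the longest transcript Gstp1 was the highest at 67.2 and Gstm1 second at 48.7. Gstk1, Gstm2 and Gsto1 came next at 14.1, 12.8 and 9.68 CPM per kb, then Gsta4 at 5.54. The theta genes were the lowest, with Gstt1 at 2.79 ± 0.352, Gstt2 at 1.15 ± 0.199 and Gstt3 at 0.478 ± 0.0454 CPM per kb, and here each gene's range lay clear of the next. In WT soleus, Gstm1 was again highest per kilobase of merged exons at 33.6 ± 3.25 CPM per kb, and Gsto1 stood second at 29.1 ± 1.80, level with Gstp1 at 28.6 ± 1.40. Per kilobase of the longest transcript the order in WT soleus was Gstp1 at 53.9, Gsto1 at 49.8 and Gstm1 at 38.4. The ranges of Gstt2 and Gstt3 overlapped in the soleus of either genotype. They were at 0.712 ± 0.123 and 0.691 ± 0.0994 CPM per kb in WT, and at 0.977 ± 0.159 and 0.725 ± 0.122 in ∆Ig3-MuSK. Their order within each library was not tested. Gstt2 made up 0.714% ± 0.132 of the summed level per kb of the 10 genes in WT TA, 1.17% ± 0.134 in ∆Ig3-MuSK TA, 0.466% ± 0.0843 in WT soleus and 0.596% ± 0.102 in ∆Ig3-MuSK soleus. It was therefore a minor transcript of the family in every group.

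**Figure D1:**
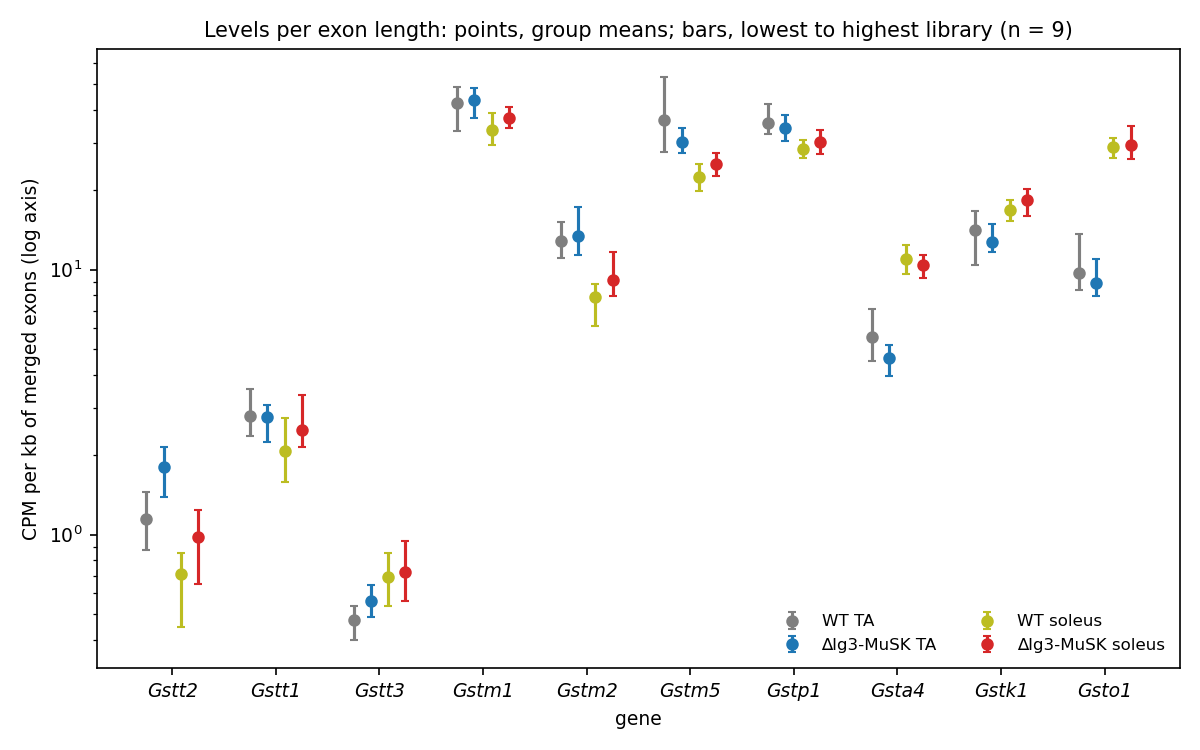
Level of each gene in CPM per kilobase of merged exons, on a log axis, with points for the mean of each group and bars from its lowest to its highest library (n = 9). The theta genes Gstt1, Gstt2 and Gstt3 lie below the other 7 in all 4 groups, and Gsto1 and Gsta4 sit higher in the soleus than in the TA.

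Gstt2 encodes a theta class enzyme. Because WT TA and ∆Ig3-MuSK TA decided its choice, its TA values are a description. The gene lay between 3.65 and 6.00 CPM in WT TA, with a median of 4.51, and between 5.74 and 8.92 CPM in ∆Ig3-MuSK TA, with a median of 7.38. Of the 9 mutant libraries, 8 were above the highest WT library, and replicate 7 at 5.74 CPM fell within the WT range. The log2 fold change was 0.66 (SE 0.10), a 1.57-fold higher level. Over all genes, 3 (0.0149% of 20075 tested) were called higher in ∆Ig3-MuSK TA at an adjusted p under 0.05 and at least 1.2-fold. That count was 173 with DESeq2, 692 in a single fit over the 36 libraries and 0 with the replicate number as a block, in either direction. Gstt2 was among the 3, but its choice used this same contrast, so the call is no test of it. With each library left out in turn the log2 fold change of Gstt2 stayed between 0.61 and 0.70, and it was 0.64 without replicate 5 of WT TA. With the replicate number as a block the log2 fold change was 0.66 and the gene was no longer past the threshold in the TA. This block joins WT and mutant libraries by number alone.

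In the soleus, whose libraries the choice did not use, Gstt2 lay between 1.86 and 3.54 CPM in WT, with a median of 2.96, and between 2.72 and 5.16 CPM in ∆Ig3-MuSK, with a median of 4.02. Again 8 of 9 mutant libraries were above the highest WT library, and replicate 6 at 2.72 CPM was the exception. The level was 1.36-fold higher in the mutant (log2 fold change 0.44, SE 0.12), which did not pass the adjusted threshold with edgeR's quasi-likelihood test (unadjusted p = 0.000986, adjusted p = 0.0605). The call depended on the method. DESeq2 gave an adjusted p of 0.0128, limma-voom 0.0403 and a single fit over the 36 libraries 0.0258. The fit with the replicate number as a block gave 0.0194, though that block joins WT and mutant libraries by number alone. The log2 fold change was 0.44 to 0.45 in all 4. Scaling by library totals alone gave 0.36 with an adjusted p of 0.103. Leaving out replicate 1 or 2 of WT soleus, or replicate 6 of ∆Ig3-MuSK soleus, moved the adjusted p to 0.0457, 0.0449 and 0.0285, and over all 18 single omissions it ran up to 0.120. Without replicate 8 of ∆Ig3-MuSK soleus the log2 fold change was 0.43 and the gene stayed uncalled. TA and soleus libraries share label numbers. The labels do not say whether a number marks an animal, while the study describes 1 muscle per animal, so whether the soleus libraries came from other mice than the TA libraries cannot be told.

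**Figure D2:**
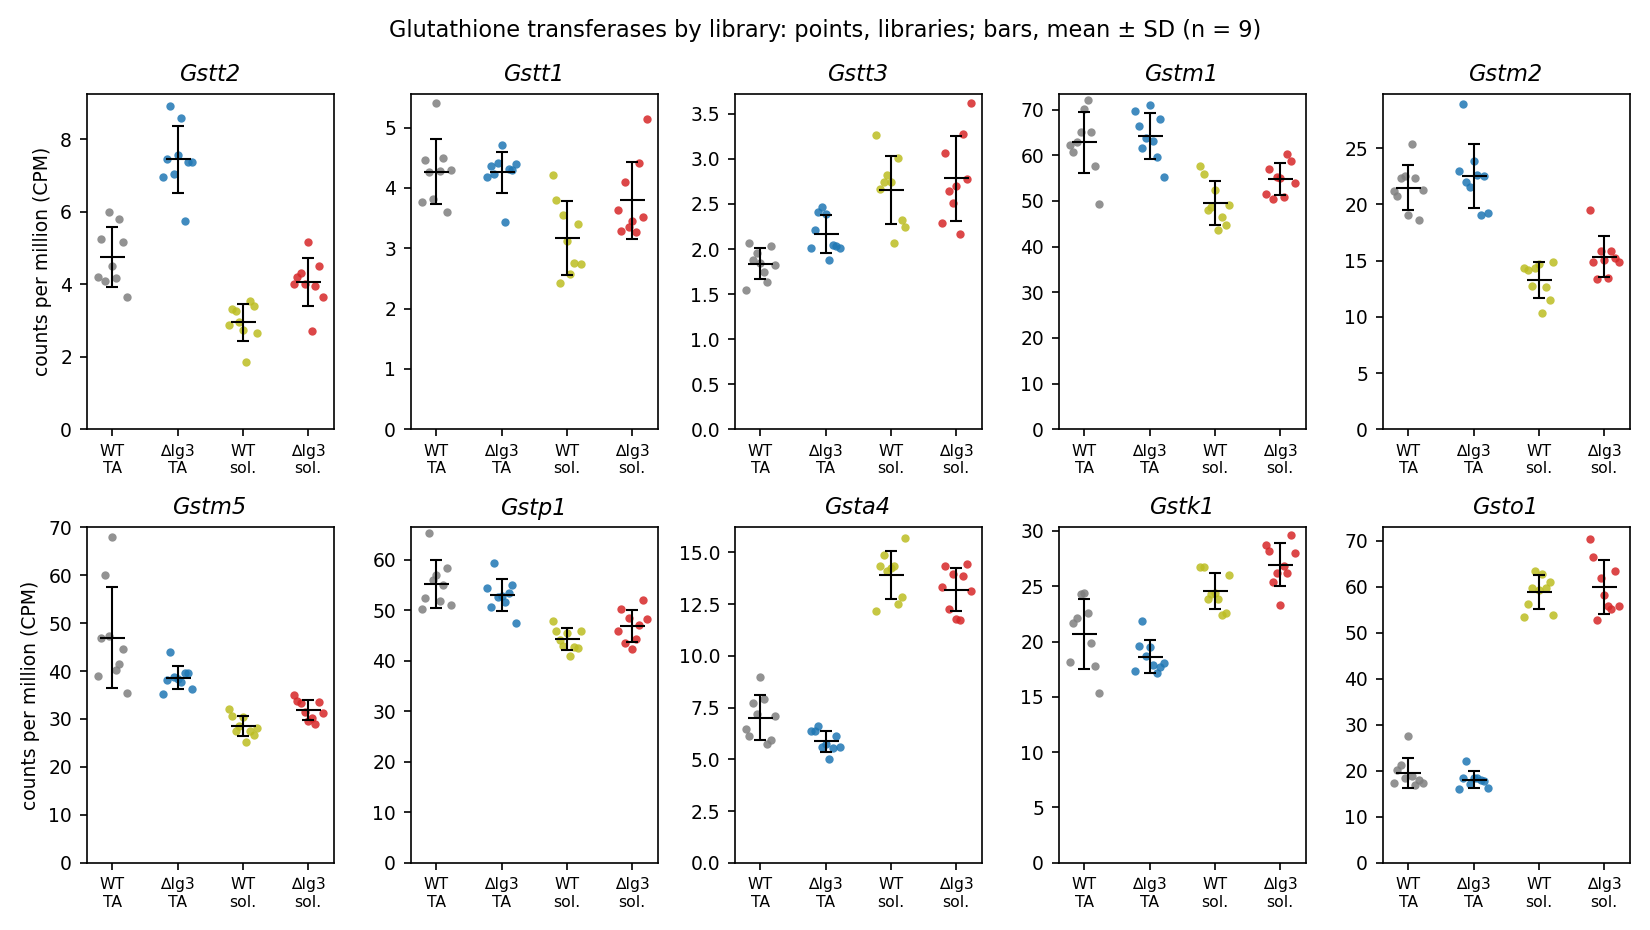
CPM of each of the 10 genes in every library, with points for libraries in label order and black bars for the mean ± SD of each group (n = 9), each panel with its own axis from 0. For Gstt2, 8 of 9 ∆Ig3-MuSK libraries lie above every WT library in either muscle. Gsto1, Gsta4, Gstm5 and Gstt2 part by muscle with no overlap within each genotype. The share of all genes that part in this way was not counted.

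Gstt1 and Gstt3 are the neighbors of the same class, and whether their genotype difference differed from that of Gstt2 was not tested. In the TA, Gstt1 was at 4.26 ± 0.538 CPM in WT and 4.26 ± 0.345 CPM in ∆Ig3-MuSK (SD, n = 9; log2 fold change 0.01, SE 0.08). Gstt3 was at 1.84 ± 0.174 and 2.16 ± 0.212 CPM (log2 fold change 0.24, SE 0.08), with 9 of 9 mutant libraries above the WT mean and 4 above the highest WT library. In the soleus, Gstt1 was at 3.17 ± 0.609 CPM in WT and 3.80 ± 0.637 CPM in ∆Ig3-MuSK (log2 fold change 0.25, SE 0.11, adjusted p = 0.243), and Gstt3 at 2.66 ± 0.382 and 2.78 ± 0.468 CPM (log2 fold change 0.05, SE 0.10, adjusted p = 0.820). Within 100 kb of Gstt2 the annotation lists 13 other genes, of which 9 passed the filter, and 0 were called for genotype in either muscle, where 0.952% of all genes were called in the soleus and 0.0149% in the TA, so the count says nothing particular about the region. Their log2 fold changes ran from -0.06 to 0.25 in the soleus and from -0.19 to 0.35 in the TA. Gstt2 was at 0.44 in the soleus, while its TA value was fixed by its choice. Among the tested neighbors of other families, Mif, a cytokine gene, was at -0.19 in the TA and -0.06 in the soleus, and Ddt, which encodes a protein related to MIF, was at -0.16 and 0.08. Cabin1, a calcineurin inhibitor gene, held the highest TA value, 0.35.

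Over both muscles, the mu, pi, alpha, kappa and omega genes had genotype log2 fold changes between -0.27 and 0.20. In the TA their log2 fold changes, given as a description, ran from -0.27 for Gstm5 to 0.07 for Gstm2, with Gsta4 at -0.25, Gstk1 at -0.14, Gsto1 at -0.11, Gstp1 at -0.05 and Gstm1 at 0.04. Gstm5 lay between 35.4 and 67.9 CPM in WT TA (median 44.6) and between 35.2 and 43.9 CPM in ∆Ig3-MuSK TA (median 38.3). The log2 fold change of Gstm5 corresponds to a 1.21-fold lower level, and the gene was called in the single fit over the 36 libraries. Its highest WT value was that of replicate 5, without which the log2 fold change was -0.20. Without the same library Gsta4 was at -0.20 and Gsto1 at -0.04. Gsta4, whose product clears hydroxynonenal from lipid peroxidation, was at 7.02 ± 1.07 CPM in WT TA and 5.88 ± 0.512 CPM in ∆Ig3-MuSK TA, and all 9 mutant libraries were below the WT mean. In the soleus, 0 of the 10 genes were called with edgeR's quasi-likelihood test, where 0.952% of the 19439 genes tested were called in either direction. At an unadjusted p under 0.05, 6 of the 10 were higher in ∆Ig3-MuSK and 0 lower, against 8.48% of all genes tested that were higher. These were Gstt2, Gstt1, Gstm1, Gstm2, Gstm5 and Gstk1. No fiber or cell type marker was called for genotype in the soleus, but several lists were of 1 sign. All 10 fast fiber genes and all 7 adipocyte genes had a log2 fold change above 0, with medians of 0.25 and 0.50. All 5 tendon cell, 7 fibroblast and 7 macrophage genes had one below 0, with medians of -0.63, -0.20 and -0.40. The 6 Schwann cell genes were all above 0 and the 6 endothelial genes all below 0, with medians of 0.14 and -0.14. Of 9 slow fiber and 4 satellite cell genes, 4 and 2 were above 0. Of 10 genes of the immediate early response, 0 were above 0 and 0 were called, with a median of -0.46. An unadjusted p under 0.05 was held by 2 fast fiber, 1 slow fiber, 1 adipocyte, 2 tendon cell and 2 fibroblast genes. It was also held by 2 endothelial, 1 Schwann cell, 0 macrophage, 0 satellite cell and 5 immediate early response genes. Of all genes tested, 18.5% had one. The summed fast fiber level ran from 22575 to 49018 CPM in WT soleus and from 31949 to 45205 CPM in ∆Ig3-MuSK soleus, the adipocyte level from 53.5 to 285 and from 23.7 to 257 CPM, and the tendon level from 146 to 407 and from 10.9 to 296 CPM. The part of these markers in the soleus values of the 10 genes was not tested. Apart from Gstt2 their differences were small: Gstm2 was at 13.3 ± 1.58 CPM in WT and 15.4 ± 1.80 CPM in the mutant (log2 fold change 0.20, SE 0.07, adjusted p = 0.162), and Gstm5 at 28.5 ± 2.15 and 31.9 ± 2.15 CPM (0.15, SE 0.04, adjusted p = 0.0947). Gstm1 differed by 0.13 (SE 0.05, adjusted p = 0.165) and Gstk1, a mitochondrial and peroxisomal enzyme, by 0.12 (SE 0.04, adjusted p = 0.139). Gstp1 at 0.07, Gsta4 at -0.09 and Gsto1 at 0.01 had unadjusted p above 0.05. The median over the 10 genes was 0.13 on the log2 scale in the soleus and -0.02 in the TA, and the median over all genes tested was close to 0 in both. Scaling by library totals alone moved the soleus values of Gstt3, Gstp1 and Gsto1 below 0, shifted the median of all genes to -0.08, and split the calls over all genes into 48 higher and 269 lower in place of 71 and 114. The summed level of the 10 genes was 242 ± 9.80 CPM in WT soleus and 260 ± 14.3 CPM in ∆Ig3-MuSK soleus, and 245 ± 24.2 and 235 ± 12.1 CPM in the TA. Whether the genotype difference of any gene differed between the muscles was not tested.

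**Figure D3:**
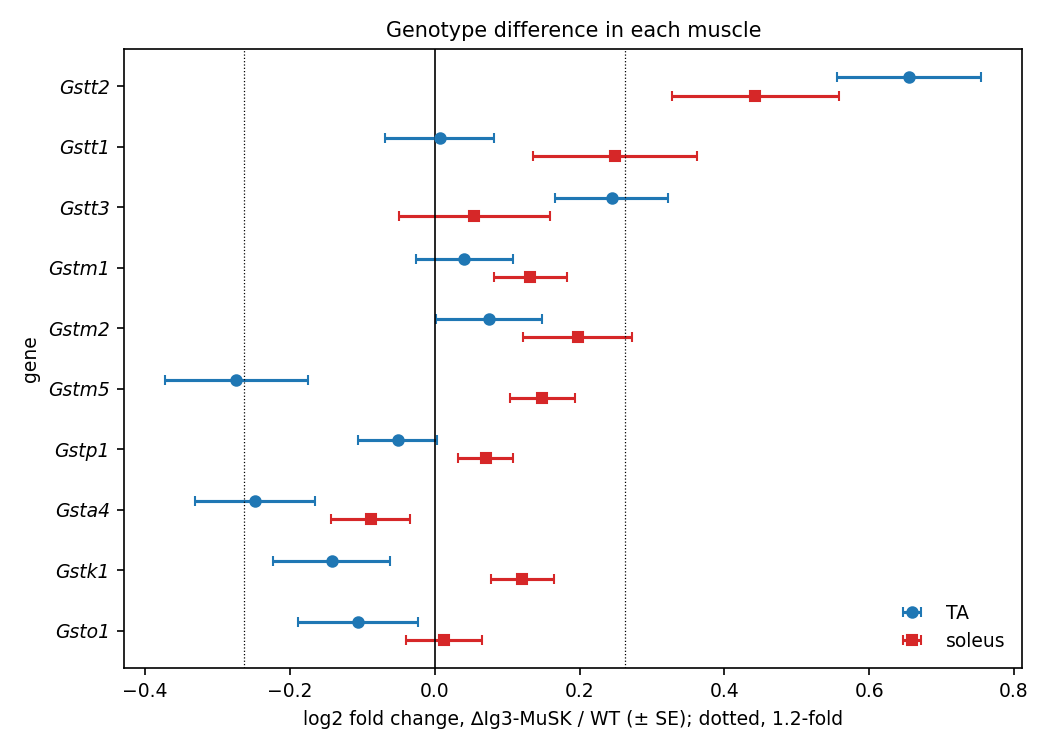
Log2 fold change of ∆Ig3-MuSK over WT for each gene (points, with bars for ± SE), circles for the TA and squares for the soleus, with dotted lines at a 1.2-fold change. In the soleus Gstt2, at 0.44, is the only one of the 10 beyond 1.2-fold, and Gstt1 lies just under that line at 0.25. The TA value of Gstt2, 0.66, was fixed by its choice.

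Calls between the muscles were more frequent than between genotypes, with 11211 genes in WT muscle against 185 between genotypes in the soleus. Among the 9 genes other than Gstt2, Gsto1, Gsta4 and Gstt3 were higher in WT soleus than in WT TA, and Gstm5, Gstm2, Gstt1, Gstm1 and Gstp1 were lower. So 3 of 9 were called higher in the soleus and 5 of 9 higher in the TA, where 30% and 27.6% of the 19437 genes tested were called. In ∆Ig3-MuSK mice, 4 of 9 (Gsto1, Gsta4, Gstk1 and Gstt3) were called higher in the soleus and 2 of 9 (Gstm2 and Gstm5) higher in the TA, against 27.9% and 28% of 19910 genes. Differences between the muscles were thus common among other genes as well, and the sizes are given gene by gene.

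Gsto1, an omega class enzyme with thiol transferase and dehydroascorbate reductase activity, showed the largest difference of the 10 in both genotypes. It lay between 16.9 and 27.4 CPM in WT TA (median 18.5) and between 53.4 and 63.5 CPM in WT soleus (median 59.7). In the mutants the ranges were 16.0 to 22.2 CPM in the TA (median 18.002) and 52.8 to 70.3 CPM in the soleus (median 58.2). No soleus library of either genotype came near a TA library. The soleus level was 3.04-fold higher in WT (log2 fold change 1.60, SE 0.08, adjusted p = 3.50e-13) and 3.32-fold higher in ∆Ig3-MuSK (1.73, SE 0.06, adjusted p = 8.41e-16).

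Gsta4 followed the same direction at a smaller size. Its range was 5.73 to 9.00 CPM in WT TA and 12.2 to 15.7 CPM in WT soleus, with medians of 7.10 and 14.3, and 5.01 to 6.59 and 11.7 to 14.4 CPM in the mutants, with medians of 5.76 and 13.3. The ranges of the muscles did not overlap in either genotype. The soleus level was 2.00-fold higher in WT (log2 fold change 1.00, SE 0.08, adjusted p = 7.95e-10) and 2.25-fold higher in ∆Ig3-MuSK (1.17, SE 0.06, adjusted p = 2.55e-13). Gstt3 was 1.46-fold higher in WT soleus (0.55, SE 0.09, adjusted p = 1.97e-05) and 1.29-fold higher in ∆Ig3-MuSK soleus (0.37, SE 0.09, adjusted p = 0.00172). Gm20441, which shares exon bases with Gstt3 on the same strand, was also higher in the soleus, at 17.1 CPM against 9.88 CPM in WT, and how many reads of the pair were assigned to each was not tested. Gstk1 stood at 20.7 ± 3.12 CPM in WT TA and 24.6 ± 1.62 CPM in WT soleus, a difference that passed on p but lay under the 1.2-fold limit (0.26, SE 0.08, adjusted p = 0.00653). That limit decided the WT call: Gstk1 was past it in the single fit (0.26), without a filter on low counts (0.27), with limma-voom (0.29), with library totals alone (0.45) and in 11 of 18 fits that left out a library, among them the one without replicate 5 of WT TA (0.30). In the mutants it stood at 18.6 ± 1.49 and 26.9 ± 1.93 CPM, a 1.45-fold difference (0.54, SE 0.05, adjusted p = 4.62e-09).

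The mu class genes and Gstp1 went the other way. Gstm2 was 1.60-fold higher in WT TA than in WT soleus (log2 fold change of soleus over TA -0.68, SE 0.07, adjusted p = 3.99e-08) and 1.46-fold higher in ∆Ig3-MuSK TA (-0.55, SE 0.08, adjusted p = 1.60e-06). Gstm5 was 1.63-fold higher in WT TA (-0.71, SE 0.10, adjusted p = 3.61e-06) and 1.21-fold higher in ∆Ig3-MuSK TA (-0.27, SE 0.04, adjusted p = 1.14e-05), and its groups did not overlap in either genotype. The WT value of Gstm5 was -0.62 without replicate 5 of WT TA, and the mutant value fell under the 1.2-fold limit on leaving out replicate 3 of ∆Ig3-MuSK TA (-0.24) or replicate 5, 6 or 7 of ∆Ig3-MuSK soleus (-0.25, -0.26 and -0.25), as well as with library totals alone (-0.23), without a filter on low counts (-0.26) and with limma-voom (-0.26). Gstm1 was 1.26-fold higher in WT TA (-0.33, SE 0.07, adjusted p = 0.000289) and under the limit in the mutants at 1.17-fold (-0.23, SE 0.05, adjusted p = 0.000461). Gstp1 behaved likewise, 1.24-fold higher in WT TA (-0.31, SE 0.05, adjusted p = 3.17e-05) and 1.13-fold higher in ∆Ig3-MuSK TA (-0.17, SE 0.04, adjusted p = 0.00176). Leaving out replicate 3 of WT TA took Gstp1 under the limit in WT (-0.26). Gstt1 was 1.33-fold higher in WT TA (-0.41, SE 0.10, adjusted p = 0.00148), and in the mutants its difference did not pass the test (-0.16, SE 0.09, adjusted p = 0.109). Gstt2, as a description, was higher in the TA than in the soleus in both genotypes without overlap, by -0.67 (SE 0.12) in WT and -0.87 (SE 0.10) in ∆Ig3-MuSK for soleus over TA. The WT and mutant comparisons were fitted separately, and whether the muscle difference of a gene depended on genotype was not tested.

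**Figure D4:**
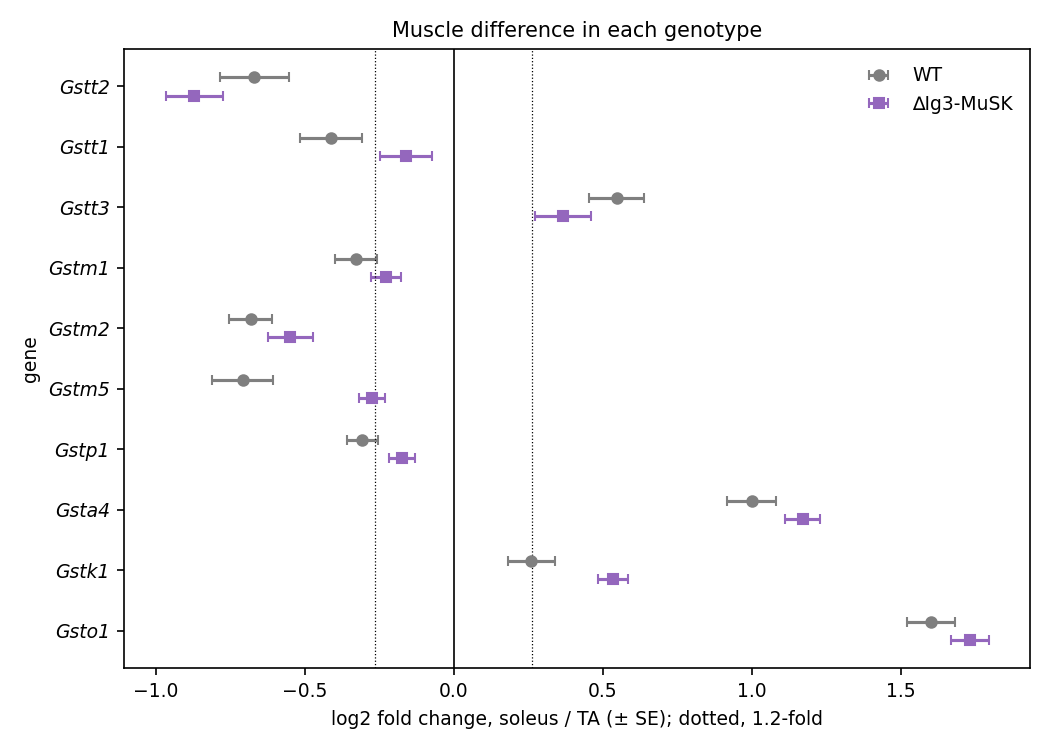
Log2 fold change of soleus over TA for each gene (points, with bars for ± SE), circles for WT and squares for ∆Ig3-MuSK, with dotted lines at a 1.2-fold change. Gsto1 and Gsta4 lie far to the right at 1.00 or more in both genotypes, and Gstt2, Gstm2 and Gstm5 lie to the left.

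Some of these differences changed with the scaling, and markers of other cell types differed between the muscles as well. With library totals alone, the WT split of all genes was 8076 higher and 3348 lower in the soleus in place of 5840 and 5371, the median of all genes was 0.20, and Gstt1 (-0.23), Gstm1 (-0.14) and Gstp1 (-0.12) fell under the 1.2-fold limit, whereas Gsto1 and Gsta4 stayed called and Gstk1 became called. In the mutants the split was 6100 and 4956 in place of 5556 and 5580. In WT, 7 of 7 adipocyte, 5 of 5 tendon cell, 5 of 6 endothelial and 3 of 4 satellite cell genes were called higher in the soleus. Of the fibroblast, macrophage and Schwann cell genes, 3 of 7, 2 of 7 and 1 of 6 were called higher. Lower in the soleus was 1 fibroblast gene. Of all genes tested, 30% were called higher in the soleus and 27.6% higher in the TA. The summed adipocyte level was 13.6 to 76.8 CPM in WT TA and 53.5 to 285 CPM in WT soleus, and the summed tendon level 61.6 to 117 and 146 to 407 CPM. No marker gene of these lists was at 0 in all libraries of a group. The part of these cells in the levels of the 10 genes was not tested.

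The rest of the family and its pathway were followed as lists. Of 20 further glutathione transferase and related genes with an ID, 15 were tested in WT muscle. Of these, 4 were called higher in the soleus and 2 higher in the TA, where 30% and 27.6% of all genes tested were called. The largest difference was that of Gstm7, another mu class gene, at 1.45 ± 0.195 CPM in WT TA and 8.37 ± 1.06 CPM in WT soleus (log2 fold change 2.54, SE 0.09, adjusted p = 1.98e-15), the opposite direction to Gstm1, Gstm2 and Gstm5. Gstm4 went with those 3 genes (-0.61, SE 0.07, adjusted p = 2.47e-07). Mgst1, a membrane-bound transferase, was 1.52-fold higher in WT soleus (adjusted p = 0.000519) and 2.07-fold higher in ∆Ig3-MuSK soleus (adjusted p = 1.90e-08). In the soleus, 0 of 18 tested genes of this list were called for genotype, with a median log2 fold change of 0.0039 and 3 at an unadjusted p under 0.05. Among genes of glutathione synthesis and turnover 0 of 16 were called for genotype in the soleus, with 1 at an unadjusted p under 0.05. For the glutathione redox cycle, which regenerates glutathione from its oxidized form, the counts were 0 of 17 and 4, and for other detoxification enzymes and transporters 0 of 25 and 6. Over all genes tested, 18.5% had an unadjusted p under 0.05 in either direction and 0.952% were called. Of 24 tested NRF2 factors and targets, 1 was called: Aox1, an aldehyde oxidase gene, at 39.4 ± 3.74 CPM in WT soleus and 49.5 ± 7.15 CPM in ∆Ig3-MuSK soleus (log2 fold change 0.32, SE 0.08, adjusted p = 0.0485). Between the muscles of WT mice, 15 of 17 redox cycle genes were called, 7 higher in the soleus and 8 higher in the TA, where 57.7% of all genes tested were called. Nnt and Idh2 are genes for mitochondrial enzymes that can form the NADPH that glutathione reductase uses. Their levels were 12.8-fold (adjusted p = 2.01e-19) and 9.59-fold (adjusted p = 1.30e-16) higher in WT soleus. Me1, a gene for a cytosolic enzyme of this kind, was 2.36-fold higher in WT TA (adjusted p = 4.10e-14). Gene counts do not show whether a working enzyme is made, for Nnt or for the others. Gclm, the regulatory subunit of the enzyme that limits glutathione synthesis, was 1.43-fold higher in WT TA (adjusted p = 7.15e-08).

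The genes whose pattern was most like that of Gstt2 came from elsewhere in the genome. Likeness was the Pearson r of log2 CPM deviations from the 4 group means over 36 libraries, for 18930 genes, so differences between groups did not enter it. The 5 highest were 2900052L18Rik (0.74), Dbp (0.74), Sphk2 (0.70), Galnt15 (0.63) and 4933417D19Rik (0.61). Dbp encodes a transcription factor of the circadian clock output, Sphk2 a sphingosine kinase and Galnt15 an enzyme of protein glycosylation. Exons of Sphk2 and Dbp overlap on opposite strands, so in libraries without strand some of their reads cannot be told apart. For Dbp the r was 0.78 over the TA libraries and 0.74 over the soleus libraries, and for Galnt15 it was 0.30 and 0.87. The other 9 transferases had an r between -0.19 and 0.35, with Gstt3 the most alike at rank 409. These values describe libraries that share preparation and composition, and carry no p.

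Dbp also differed between the genotypes, whose label numbers do not overlap. It lay between 42.1 and 79.1 CPM in WT TA (median 54.7) and between 66.6 and 122 CPM in ∆Ig3-MuSK TA (median 109), and between 26.6 and 68.1 CPM in WT soleus (median 32.5) and 46.2 and 133 CPM in ∆Ig3-MuSK soleus (median 95.2). The lowest mutant library for Dbp was replicate 7 in the TA and replicate 6 in the soleus. They were also the lowest mutant libraries for Gstt2, and they carry the same label number. Dbp was named for its likeness to Gstt2 within the groups, so shared low libraries follow in part from that choice. Over the list of 16 circadian clock genes, 9 were called higher and 2 lower in ∆Ig3-MuSK soleus, where 0.952% of all genes were called, and 1, Dbp, was called in ∆Ig3-MuSK TA. In the soleus, Dbp was 2.35-fold higher (adjusted p = 0.0135), Per3 1.91-fold (adjusted p = 0.0161) and Nr1d2 1.38-fold (adjusted p = 0.0134). The summed clock level ran from 471 to 603 CPM in WT soleus and from 594 to 835 CPM in ∆Ig3-MuSK soleus, and from 643 to 874 and 821 to 1059 CPM in the TA. The part of the clock genes in the level of Gstt2 was not tested.

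**Figure D5:**
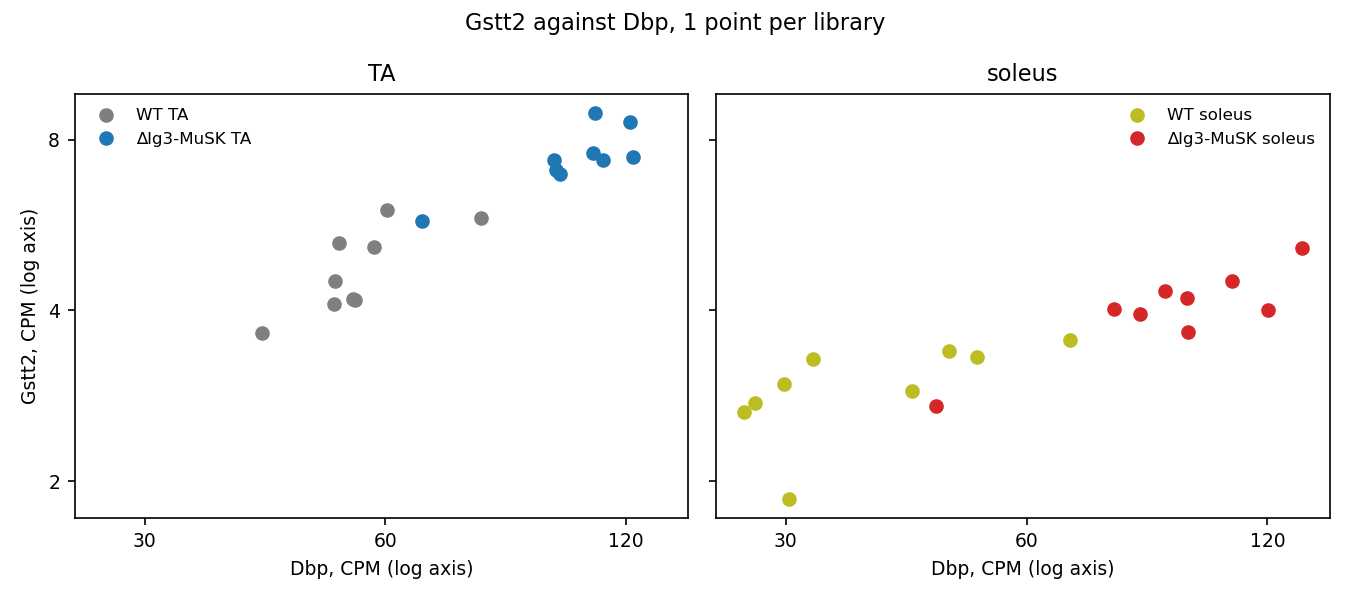
Gstt2 against Dbp in CPM, both on log axes, with 1 point per library, the TA on the left and the soleus on the right (9 WT and 9 ∆Ig3-MuSK libraries each). In either muscle the mutant library with the lowest Gstt2 (5.74 CPM in the TA, 2.72 CPM in the soleus) is also the one with the lowest Dbp and falls among or next to the WT libraries. Dbp was named for its likeness to Gstt2 over these same libraries.

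In each genotype 8 label numbers occurred on both a TA and a soleus library. Over these 16 pairs the deviations of Gstt2 from its group means had, between the TA and soleus libraries of a number, a Pearson r of 0.63 (p = 0.0115) and a Spearman rho of 0.63 (p = 0.0180; permutation test within genotype, 2-sided, 1 relation computed). Within WT the r was 0.49 and within ∆Ig3-MuSK 0.85. Leaving out the 2 pairs farthest from the median of the TA values gave an r of 0.51 over 14 pairs, which did not pass the test (permutation p = 0.106). The same relation was not computed for other genes, so whether it is particular to Gstt2 cannot be told. Taken over genes, the deviations of the 2 libraries of a number had a median r of 0.08 in WT and 0.16 in ∆Ig3-MuSK.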

How the data were processed

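Total RNA of whole TA and soleus muscles was sequenced from libraries without strand information, 9 per group. The authors trimmed reads with Trimmomatic, aligned them with GSNAP to GRCm38 (mm10) and counted them per gene with HTSeq. They deposited whole-number counts, without normalization or filter, in 2 tables, one per muscle; 0 columns belonged to other samples. Groups came from the labels. Labels do not say which libraries share an animal, so p-values measure the spread between labelled libraries.

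Gene symbols and coordinates came from GENCODE M21 (51719 of 51912 IDs had a symbol). Each comparison was fitted in R 4.3.3 with edgeR 4.0.16: filterByExpr (minimum count 10), TMM factors, glmQLFit and glmQLFTest over 18 libraries, with Benjamini-Hochberg adjustment over all genes tested. Genes were called at an adjusted p under 0.05 and at least 1.2-fold. Log2 CPM used a prior count of 2. The members, lists and tests were chosen with earlier results of these data known. The text names the 10 members, up to 3 called genes per list and comparison, the 5 genes most like Gstt2 and its neighbors within 100 kb. Musk, Gm20441, Gstp2, 4933431E20Rik and levels of a few markers were added after values were seen. At 43492062 to 78660422 counts per library, the 10 genes had from 80 counts upward in every library, and this counting error is included in the spread. No pair of libraries had counts that agreed within sampling noise. The fits for genotype in the soleus and for muscle in WT were tried on simulated counts with known changes. Those changes were larger than the genotype differences of Gstt2, so the recovery of smaller ones was not tested. Alternatives were DESeq2 1.42.0, limma-voom (limma 3.58.1), RLE factors, library totals alone, no filter on low counts, no minimum fold, 1 fit over the 36 libraries, a replicate block and each library left out in turn.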

Additional observations from a re-analysis of the deposited data

Results flagged for a closer look

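Of 40 combinations of gene and group tested for a library far from the other 8 with Dixon's test, 6 were past its 95% limit, and chance gives about 1 in 20. In WT TA, replicate 5 was the highest for Gstt1 at 5.41 CPM (the next library had 4.50) and for Gsto1 at 27.4 CPM (the next had 21.3). This library also had the lowest TMM factor, 0.805. In ∆Ig3-MuSK TA, Gstt1 was lowest in replicate 6 at 3.43 CPM (next 4.18), Gstm2 highest in replicate 2 at 28.9 CPM (next 23.8) and Gsto1 highest in replicate 3 at 22.2 CPM (next 18.5). In ∆Ig3-MuSK soleus, Gstm2 was highest in replicate 1 at 19.5 CPM (next 15.9). Gstt2 had no such library in any of the 4 groups.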

How the results depend on the processing

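In the soleus, 0 of the 10 genes were called for genotype, and 1, Gstt2, with DESeq2, limma-voom, 1 fit over the 36 libraries and the replicate block. Leaving out each library gave 0 to 1. The count over all genes was 185, against 653 with limma-voom, 486 with DESeq2, 347 with the replicate block, 312 with the single fit, 317 with library totals alone and 22 to 602 on leaving out each library. In the TA, 1 of the 10 was called, 2 (Gstt2 and Gstm5) in the single fit and 0 with the replicate block. Over all genes the TA count was 3, against 692 in the single fit, 173 with DESeq2, 150 with limma-voom, 10 without a filter, 0 with the replicate block and 3 to 9 on leaving out each library. Among the values tested, those that changed sign were all small ones for genotype in the soleus: Gstt3 (-0.021), Gstp1 (-0.0091) and Gsto1 (-0.075) with library totals alone, and Gsto1 (-0.036) with limma-voom. On leaving out single libraries Gsto1 ran from -0.019 to 0.032 and Gstt3 from -0.0010 to 0.095. In the muscle comparisons of WT and of ∆Ig3-MuSK, the number of genes called stayed within 1.5 times under all alternatives, among them the 16 libraries that share a label number without a block, a choice made after seeing the data. The order of the most abundant of the 10 genes per kb also changed with the length used. Gstt2 ranked 10 rather than 9 per kb in WT soleus with the longest transcript as length, and 3 of the 5 genes most like it were kept with Spearman correlation. Causes of these changes were not tested.

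The replicate numbers of the genotypes share only a number: deviations of same-numbered libraries correlated over 0.1 in 3 of 9 pairs in the soleus and 2 of 9 in the TA, and 1 library in each was closest to its own number. For label numbers across the muscles the correlation was over 0.1 in 3 of 8 pairs in WT and 7 of 8 in ∆Ig3-MuSK. The library closest was that of its own number in 3 of 8 and 6 of 8. With that number as a replicate block the calls of the 10 genes did not change.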
